A study of Sus scrofa with 6 samples.

Results

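The cholesterol synthesis genes described here are HMGCS1, IDI1, FDPS, FDFT1, SQLE, MSMO1 and HSD17B7, 7 genes listed by name as enzymes of the pathway. A gene was taken as measured where the array's annotation table named it as the only gene of a probe set, the group of short probes that reads 1 transcript. That left 6 of the 7 genes, with 8 probe sets among 23999, and IDI1 was not analysed here. MSMO1 had 3 probe sets and each other gene 1. A gene was represented by its probe set with the highest mean over all arrays, as were the 6765 genes measured in all.

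Expression was measured on Affymetrix porcine arrays in 6 keratinocyte clones of white domestic pigs (Sus scrofa), 3 from the conjunctiva and 3 from the central cornea, 1 array per clone. No genetic change or drug treatment is named for either tissue, and the age of the animals is not given in the sources used here. The feeder layer under every clone was the mouse fibroblast line 3T3-J2, irradiated beforehand, and each clone descended from 1 hand-picked cell. The labels name 2 animals without tying a clone to either, so some clones of each tissue must share an animal, and p-values measure only the spread between these clones. A time course of irradiation is entered as the project in the array run files, of which the labels say nothing. The groups follow the labels.

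Cholesterol is made from acetyl-CoA through the mevalonate pathway, which builds the isoprenoid farnesyl pyrophosphate, and then through squalene and lanosterol to cholesterol itself. The genes of the pathway are targets of the sterol regulatory element-binding proteins (SREBPs), transcription factors that are released from the endoplasmic reticulum when membrane sterols run low. In stratified epithelia keratinocytes make much of their own cholesterol, which goes into membranes and, in skin, into the lipid barrier. The enzyme encoded by HSD17B7 reduces a sterol ketone during the removal of methyl groups from lanosterol products, and is also known for turning estrone into estradiol.

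The values were log2 intensities after the robust multi-array average (RMA), in which arrays are scaled to a common distribution, so a difference of 1 is a doubling of signal. Their array medians lay between 4.4 and 4.478. Of 11 measured keratinocyte markers, 10 had a mean above the median probe set, as had 4993 of all 6765 genes. KRT5, KRT14 and TP63 had no probe set of their own and were not analysed here. The count above that median was 0 of 9 leukocyte, 1 of 5 melanocyte, 2 of 8 endothelial, 1 of 2 goblet and 7 of 11 fibroblast and keratocyte markers. In an RNA extract of whole cultures, fewer cells of a type and less RNA per cell cannot be told apart.

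The comparison of conjunctiva with cornea asks which genes differ between clones of neighbouring surface epithelia of the eye. HSD17B7 was the measured member whose values separated the tissues, at 1.43-fold higher in conjunctiva, and the other 5 genes overlapped between them. No member passed the test over all probe sets. The larger movement of the other 5 genes was between clones of 1 tissue, with the clones numbered 1 in each tissue high together.

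**Figure D1:**
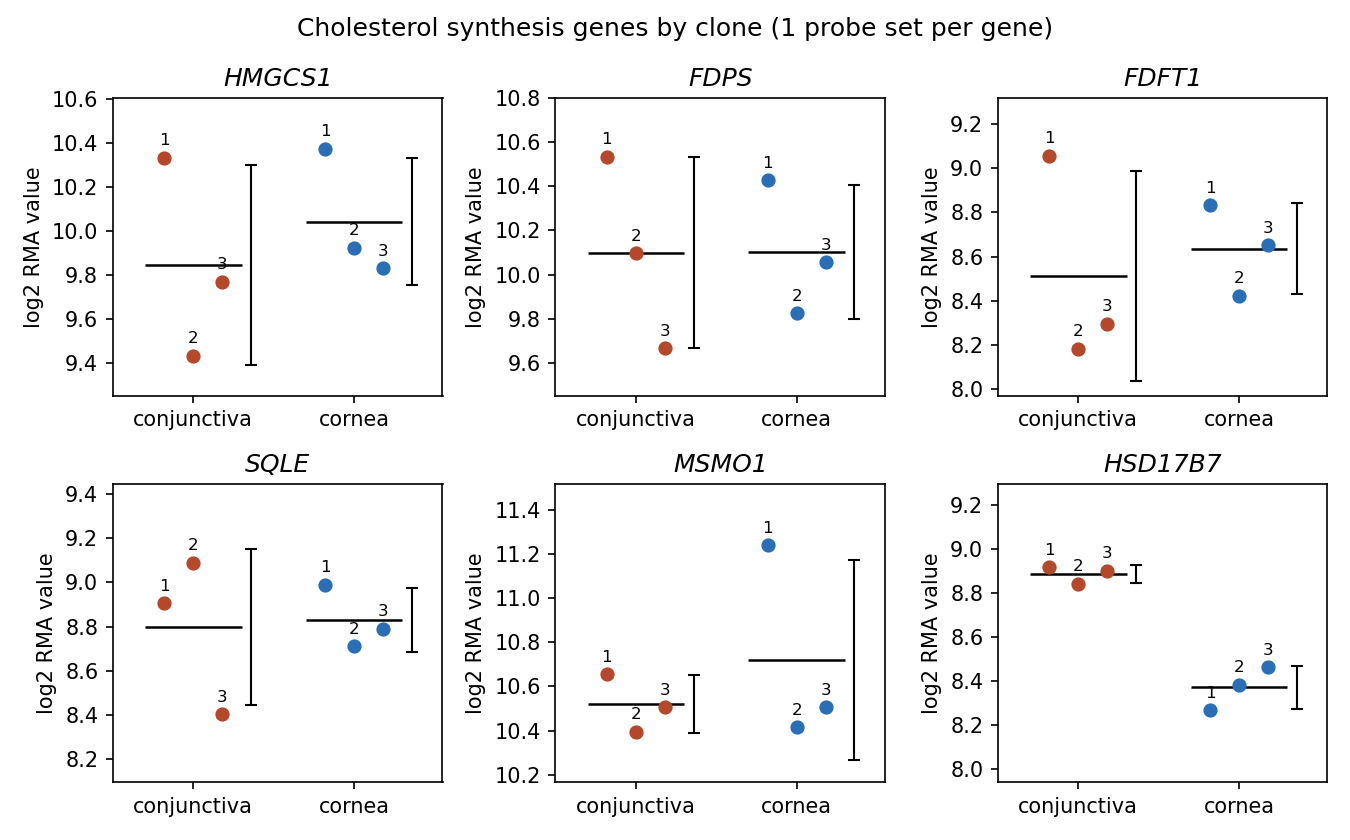
Log2 RMA value of each measured cholesterol synthesis gene in 3 conjunctival (left) and 3 corneal (right) clones; points carry the clone number, the line is the mean and the bar the SD (n = 3). Only for HSD17B7, at 8.84 to 8.92 in conjunctiva and 8.27 to 8.46 in cornea, do the tissues not overlap.

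HMGCS1 encodes the synthase that makes HMG-CoA, an early intermediate of the pathway. Its log2 values were 10.33, 9.43 and 9.77 in conjunctival clones 1, 2 and 3, against 10.37, 9.92 and 9.83 in corneal clones 1, 2 and 3. The clones numbered 1 were the highest in each tissue, conjunctiva 2 was the lowest of all, and the tissues overlapped. The difference of conjunctiva minus cornea was -0.20 (SE 0.26, 95% confidence interval -0.81 to 0.42, limma adjusted p = 0.9999).

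FDPS encodes the synthase of farnesyl pyrophosphate, the isoprenoid from which sterols, dolichol and prenyl anchors of proteins are made. It was at 10.54, 10.10 and 9.67 in conjunctival clones 1 to 3 and at 10.43, 9.83 and 10.05 in corneal clones 1 to 3, on the log2 scale. Again both clones numbered 1 stood above the rest, and the tissue means were nearly equal (10.10 ± 0.44 in conjunctiva and 10.10 ± 0.30 in cornea, SD, n = 3). The interval of the difference ran from -0.61 to 0.60.

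FDFT1 encodes squalene synthase, the first enzyme committed to sterols. Its log2 values were 9.06, 8.18 and 8.30 in conjunctival clones 1 to 3, and 8.83, 8.42 and 8.65 in corneal clones 1 to 3. Conjunctiva 1 and cornea 1 were the highest of the 6, and the difference between the tissues was -0.12 (SE 0.25, 95% confidence interval -0.72 to 0.47).

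SQLE encodes squalene epoxidase, an oxygen-dependent and tightly regulated step of the pathway. It stood at 8.91, 9.09 and 8.40 in conjunctival clones 1 to 3 and at 8.99, 8.71 and 8.79 in corneal clones 1 to 3. Here conjunctiva 2 was the highest clone and conjunctiva 3 the lowest, as conjunctiva 3 also was for FDPS. The tissues differed by -0.03 (SE 0.19, 95% confidence interval -0.49 to 0.43).

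MSMO1 encodes the sterol methyl oxidase that acts shortly before HSD17B7 in the pathway. Its brightest probe set read 10.66, 10.39 and 10.51 in conjunctival clones 1 to 3 and 11.24, 10.41 and 10.51 in corneal clones 1 to 3. Cornea 1 was set apart, and the other 5 clones lay within a narrow band. The difference was -0.20 (SE 0.23, 95% confidence interval -0.75 to 0.34), and 0.06 without cornea 1. The second probe set, with 7.48, 6.80 and 7.01 in conjunctiva and 8.39, 7.18 and 7.21 in cornea, had the same high clone in each tissue and a difference of -0.50 (SE 0.36). The third was dim, at 2.74 to 2.89 in all clones, below the array medians, and differed by -0.0023.

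HSD17B7 was at 8.92, 8.84 and 8.90 in conjunctival clones 1 to 3, against 8.27, 8.38 and 8.46 in corneal clones 1 to 3. All 3 conjunctival clones lay above all 3 corneal clones, and the spread within a tissue was small (8.89 ± 0.04 in conjunctiva and 8.37 ± 0.10 in cornea, SD, n = 3). The difference was 0.52 (SE 0.10, 95% confidence interval 0.27 to 0.76), a ratio of 1.43 with an interval of 1.21 to 1.69. It did not pass over all probe sets (limma adjusted p = 0.9999, unadjusted p = 0.00161). The direction was the same in each of 17 other settings, at 0.45 to 0.60. Since the tissues did not overlap, leaving out clones, or blocking on the instrument that washed the arrays, could not turn it. Blocking on clone number, the filter on low values, the test options and the choice of probe sets left the estimate unchanged by construction. Only array median centring, at 0.54, was not bound in this way. This gene was already known to differ in these data when it was taken up, so its separation is a description.

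Across all 23999 probe sets, 0% passed an adjusted p of 0.05 by limma, and 648 probe sets, or 2.7%, had an unadjusted p under 0.05. With the clone number as a block these counts were 0 and 1204. Limma's trend and robust options called 2 probe sets and testing 1 probe set per gene called 1, with 0 of the 6 members among them. Of the members, 1 of 6 had no overlap between the tissues, as had 7.28% of all probe sets (3.44% higher and 3.83% lower in conjunctiva). A difference of at least 0.5 in size was seen for 3.1% of all probe sets. All of the other 5 members were lower in conjunctiva by any amount, with a median of -0.12, as were 50.8% of all probe sets, where the median was -0.0025. That direction is not stable for any of the 5, since the sign of each turned when 1 clone was left out (HMGCS1 and FDFT1 without conjunctiva 2, SQLE and FDPS without conjunctiva 3 or cornea 1, MSMO1 without cornea 1), and that of FDPS also with array median centring.

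Across the 6 clones the 5 other members had positive correlations with each other and negative ones with HSD17B7. The median of the positive ones, 0.64, fell to -0.0068 without both clones numbered 1. With so few clones left, that correlation too can decide little. The median was -0.12 with clone number and tissue both taken off (the replicate block). That setting leaves 10.1% (HMGCS1) to 50.1% (SQLE) of a gene's sum of squares, so its correlation can decide little. Of the 10 pairs among the 5 genes, all had a positive Pearson correlation over the 6 clones, with a range of 0.11 to 0.91 (Spearman median 0.6, with 9 of 10 positive). HMGCS1 and FDFT1 were the closest pair (0.91), followed by FDPS and FDFT1 (0.81), MSMO1 and HMGCS1 (0.76) and SQLE and FDPS (0.75). SQLE was the loosest, with 0.11 to HMGCS1 and 0.27 to FDFT1. All points share the 6 arrays and at most 2 animals, so no p is given. Over all pairs of the 3383 genes at or above the median gene mean, the median was 0.03, and 20.0% of pairs exceeded 0.5, as did 7 of the 10.

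**Figure D2:**
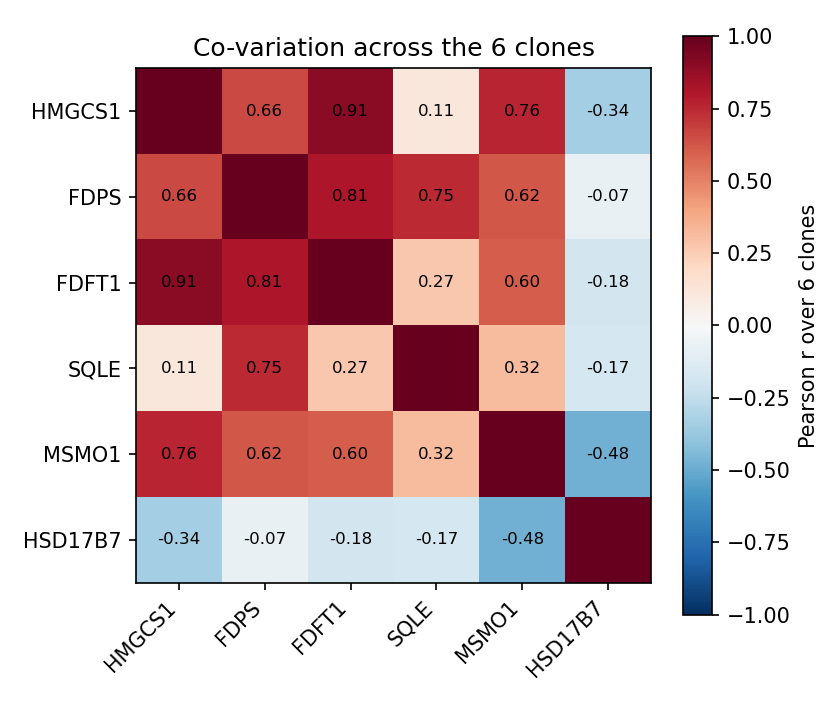
Pearson correlation over the 6 clones for each pair of measured cholesterol synthesis genes (colour scale from -1 to 1). The 10 pairs without HSD17B7 lie between 0.11 and 0.91, and the 5 pairs with it between -0.48 and -0.07.

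HSD17B7 had a negative Pearson correlation with each of the 5, at -0.48 with MSMO1, -0.34 with HMGCS1, -0.18 with FDFT1, -0.17 with SQLE and -0.07 with FDPS. By rank, 1 of these 5 was positive (0.09 with FDPS). Within the tissues, after each tissue's mean was taken off, the 10 pairs of the other genes had a median of 0.68, with 7 above 0.5. Over all pairs of the 3383 genes the median was then 0.03, with 23.1% above 0.5. This measure still holds both clones numbered 1, so it is no separate check on them. The same measure for HSD17B7 had a median of -0.31, with 1 of 5 above 0. The spread of HSD17B7 within a tissue was small, which leaves little for such a correlation to rest on.

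As the mean of the 5 genes, each first centred on its own mean, the conjunctival clones 1, 2 and 3 lay at 0.29, -0.17 and -0.28 and the corneal clones at 0.36, -0.15 and -0.04 on the log2 scale. The clones numbered 1 were the only ones above 0. HSD17B7, centred in the same way, lay at 0.29, 0.21 and 0.27 in conjunctiva and at -0.36, -0.25 and -0.17 in cornea. HSD17B7 minus that mean was 0.0010, 0.38 and 0.55 in conjunctival clones and -0.72, -0.09 and -0.12 in corneal clones. The tissue means of this contrast were 0.31 ± 0.28 in conjunctiva and -0.31 ± 0.36 in cornea (SD, n = 3), and every conjunctival value was above every corneal one. The departure was widest in cornea 1, where the other genes were high and HSD17B7 was at its lowest, and it was near 0 in conjunctiva 1, where both were high. Without 1 clone the difference of 0.63 between the tissues ranged from 0.42 to 0.78. Its size differed more between the 2 fluidics stations, the instruments that washed and stained the arrays. It was 1.19 within station 1 (conjunctiva 2 and 3 against cornea 1) and 0.11 within station 2 (conjunctiva 1 against cornea 2 and 3), where the median difference of the other 5 genes was -0.59 and 0.46 for stations 1 and 2. Each of these values sets a clone numbered 1 against clones of other numbers, so within a station the tissue and the clone number cannot be told apart.

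**Figure D3:**
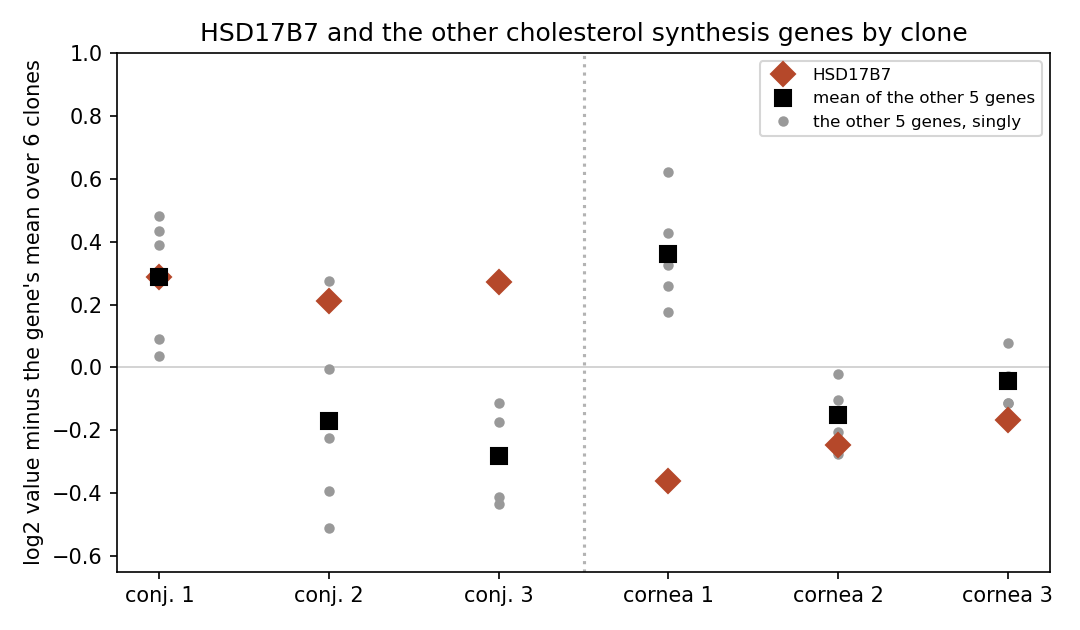
Log2 value of each gene minus its own mean over the 6 clones, for HSD17B7 (diamonds), the other 5 genes singly (grey) and their mean (squares), conjunctival clones left and corneal clones right. The mean of the 5 is above 0 in conjunctiva 1 (0.29) and cornea 1 (0.36), while HSD17B7 is above 0 in all conjunctival clones and below 0 in all corneal ones.

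Leaving out any 1 clone gave a median correlation among the 5 genes of 0.63 to 0.85, against the -0.0068 over the 4 clones that remain without both clones numbered 1. The clone number held 80.8% of the sum of squares between clones for HMGCS1, 79.1% for FDFT1, 78.9% for FDPS, 66.2% for MSMO1 and 49.4% for SQLE. Over the 3383 brighter genes its median share was 57.4%, so a large share for clone number was common in these data. Clone number has more levels than tissue, so it takes the larger share even of values that follow neither. SQLE lay below that median, with 50.1% in the remainder. For HSD17B7 it held 2.08%, while the tissue held 94.7%, against a median of 8.57% over the brighter genes.

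**Figure D4:**
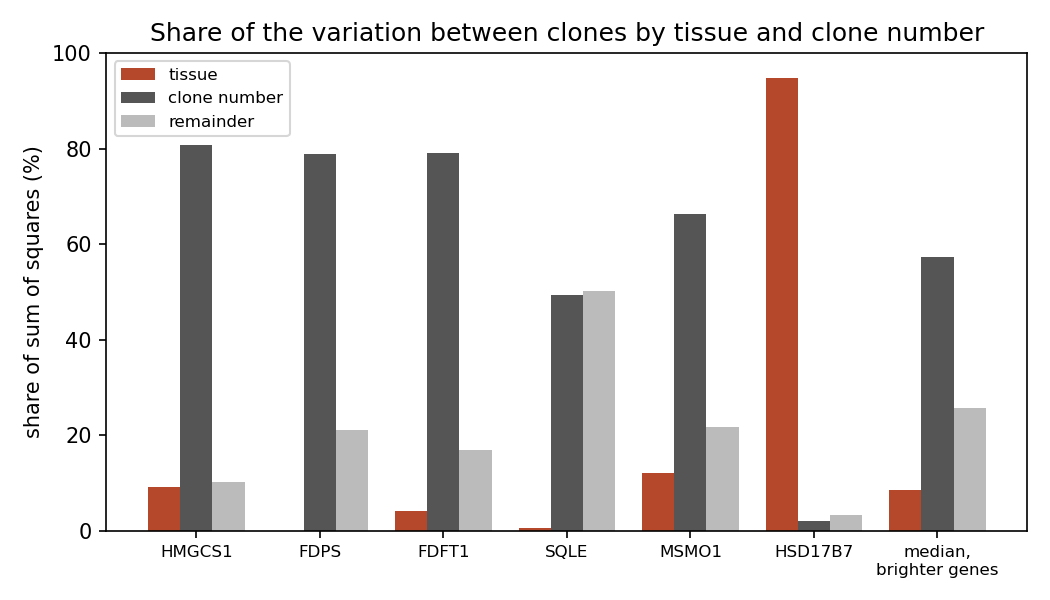
Share (%) of each gene's sum of squares over the 6 clones that lay between tissues, between clone numbers, and in the remainder, with the median over the 3383 brighter genes at the right. Tissue holds 94.7% for HSD17B7 and 12.0% or less for the other 5 genes. Clone number has more levels than tissue, so each share is to be read against its median at the right.

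A measure of RNA quality from the actin controls also set the clones numbered 1 apart. The signal of the actin control probes near the 3' end minus that near the 5' end, a measure of RNA quality that is low in intact RNA, was 0.55, 0.93 and 1.11 in conjunctival clones 1 to 3 and 0.46, 1.07 and 0.79 in corneal clones 1 to 3. It was thus lowest in the clones where the mean of the 5 genes was highest. For GAPDH the measure was 0.23, 0.42 and 0.36 in conjunctiva and -0.13, 0.25 and 0.29 in cornea, so conjunctiva 1 lay close to cornea 2 and 3. The mean of 7 cornification genes was at 0.29, -1.15 and -0.59 in conjunctiva and 0.57, 1.26 and -0.39 in cornea, relative to all clones, highest in cornea 2. The mean of 17 cell cycle genes was at 0.31, -0.03 and 0.35 in conjunctiva and 0.08, -1.14 and 0.44 in cornea, highest in the clones numbered 3 and lowest in cornea 2. Fibroblast and keratocyte markers averaged -0.23, 0.20 and -0.13 in conjunctiva and 0.07, 0.06 and 0.03 in cornea. The part of these measures in the co-variation was not tested.

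Of the 22 genes of a wider cholesterol synthesis list, 10 were measured. They comprised the 6 members and ACAT2, NSDHL, SC5D and TM7SF2. Their median difference was -0.12, with 2 of the 10 higher and 8 lower in conjunctiva, and 0 passed the test. The median turned positive without conjunctiva 3 (0.08) or cornea 1 (0.05). Over all genes, 46.5% were lower and the median was 0.01.

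**Figure D5:**
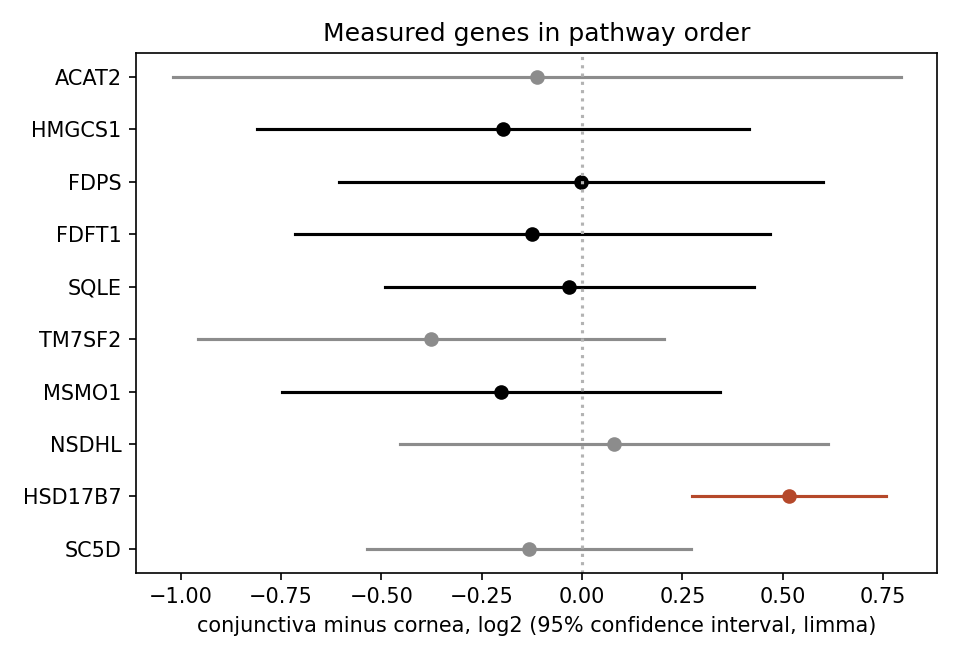
Conjunctiva minus cornea on the log2 scale with limma's 95% confidence interval for the 10 measured genes, top to bottom in pathway order (members in black, HSD17B7 in red, the other genes in grey). The interval excludes 0 for HSD17B7 (0.27 to 0.76) and includes it for the other 9.

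ACAT2, the cytosolic thiolase that feeds the pathway, varied with the members across clones. It was at 11.22, 10.53 and 9.77 in conjunctiva and 11.05, 10.57 and 10.25 in cornea, with a correlation of 0.87 to the mean of the 5 genes. NSDHL, the dehydrogenase that works beside HSD17B7 in removing methyl groups, was at 7.41, 6.80 and 6.59 in conjunctiva and 7.04, 6.72 and 6.79 in cornea. This brighter probe set had a correlation of 0.87 to the mean of the 5 genes and a difference between the tissues of 0.08 (-0.16 without conjunctiva 1). Its dimmer probe set, at 5.07, 5.11 and 4.85 in conjunctiva and 4.79, 4.67 and 4.68 in cornea, separated the tissues as HSD17B7 did, by 0.29 (SE 0.11), so the 2 probe sets disagree. SC5D, a late sterol desaturase, had a correlation of 0.45 and a difference of -0.13 (-0.29 to -0.02 when 1 clone was left out). TM7SF2, a sterol reductase, had one of -0.12 and a difference of -0.38 (-0.65 to -0.17).

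Sterol sensing was represented by 8 genes with a median difference of -0.10, of which 3 were higher in conjunctiva, 5 were lower and 0 passed the test. INSIG1, which retains the SREBP escort protein in the endoplasmic reticulum and is itself an SREBP target, was at 8.85, 7.79 and 8.42 in conjunctival clones and 8.74, 8.18 and 8.42 in corneal clones. Its correlation to the mean of the 5 genes was 0.76, with the clones numbered 1 highest, and its difference of -0.09 turned without conjunctiva 2 or cornea 1. Within the list that correlation was higher for AUP1 (0.94), 0.70 for ERLIN2 and -0.26 for SREBF1, with a median of 0.15 over the 8 genes. SREBF2, which encodes the SREBP of the cholesterol genes, was at 7.48, 7.74 and 7.36 in conjunctiva and 7.49, 7.46 and 7.36 in cornea, with a correlation of 0.0093. This probe set differed by 0.09. The dimmer probe sets of SREBF2, some below the array medians, had the opposite sign (-0.06, -0.15 and -0.12). SREBF1 was at 5.03 ± 0.19 in conjunctiva and 5.24 ± 0.16 in cornea. INSIG2, with a mean below the array medians, differed by -0.22 (-0.43 to -0.07 without 1 clone). ERLIN2 differed by -0.37 (0.14 without cornea 1). The dimmer probe sets of ERLIN2 differed by -0.37 and, below the array medians, by 0.15, so they disagree in sign.

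Cholesterol uptake, transport and storage had 11 measured genes with a median difference of -0.01, of which 5 were higher in conjunctiva, 6 were lower and 0 passed the test. LRP8, a lipoprotein receptor, was at 5.92, 5.79 and 6.29 in conjunctiva and 5.26, 5.19 and 5.69 in cornea. It separated the tissues, at a difference of 0.62 (SE 0.19, limma adjusted p = 0.9999). SCARB1, which encodes a high-density lipoprotein receptor, was at 7.14 ± 0.11 in conjunctiva and 6.87 ± 0.11 in cornea, also without overlap. NPC2, a lysosomal cholesterol carrier, was at 9.31 ± 0.07 in conjunctiva and 9.70 ± 0.15 in cornea without overlap, but its 2 other probe sets had the opposite sign (0.07 and 0.11). Of 7 measured efflux and liver X receptor genes 1 was higher and 6 lower (median -0.11, 0 past the test). The liver X receptor gene NR1H3 differed by -0.17 (-0.32 to -0.07 without 1 clone) and its partner RXRA by -0.18 (-0.27 to -0.04).

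The neighbouring branches of the pathway held 5 higher and 1 lower of 6 measured isoprenoid genes (median 0.17, 0 past the test). FNTB, a subunit of protein farnesyltransferase, was at 5.65, 5.64 and 5.68 in conjunctiva and 5.52, 5.45 and 5.23 in cornea. This is a separation by tissue of 0.26 (0.17 without cornea 3), and its dimmer probe set differed by 0.20. NUS1, a subunit of the dolichol-making enzyme, followed the 5 genes (0.96) and differed by -0.24 (-0.49 to -0.04 without 1 clone), while ICMT, which methylates prenylated proteins, differed by 0.45 (0.18 to 0.80). Fatty acid synthesis genes split 7 higher to 8 lower of 15 (median -0.02, 0 past the test), with ACSL1 at -0.53 (-0.70 to -0.31), ACSL3 at 0.29 and FADS1 at -0.28. Of the 10 other measured hydroxysteroid dehydrogenase genes 2 were higher and 8 lower (median -0.12, 0 past the test). HSD17B12 differed by -0.19, HSD17B8 by -0.19 and HSD17B1 by -0.12, each opposite in sign to HSD17B7 and with an interval that included 0. Both measured genes of the epidermal lipid list had small differences, CERS4 at -0.16 and SMPD1 at -0.02. The dimmer probe sets of SMPD1 differed by 0.18 and -0.07, so they disagree in sign. FADS1, HSD17B1, CERS4 and the dimmer probe set of FNTB had means below the array medians, which leaves little room to see a difference.

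The 5 genes whose profile over the 6 clones was most like that of HSD17B7, among 2272 brighter and varying genes, were NUDT9 (Pearson r = 0.99), SNRPN (0.99), WDR18 (0.93), CYB5A (0.92) and SLC35C2 (0.92). All 5 were higher in every conjunctival than in every corneal clone, which their choice by likeness to HSD17B7 makes likely. NUDT9 was at 8.20, 8.11 and 8.17 in conjunctiva and 7.64, 7.76 and 7.75 in cornea. CYB5A, which encodes the cytochrome that passes electrons to several sterol and fatty acid enzymes, was at 8.03, 8.16 and 8.09 in conjunctiva and 7.69, 7.82 and 7.70 in cornea. Most like the mean of the other 5 members, among 2268 genes, were SYNCRIP (0.98), NUP50 (0.98), LARP4 (0.97), PSME3 (0.96) and CNN2 (0.96). In all 5 the clones numbered 1 were the highest, which their choice by likeness to that mean also makes likely. SYNCRIP, an RNA-binding protein gene, was at 8.77, 8.14 and 7.79 in conjunctiva and 8.80, 7.92 and 8.24 in cornea. HSD17B7 stood at place 1728 of those 2268 by the same measure.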

How the data were processed

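The deposited table held log2 values made by the authors with RMA, per the submitters' processing notes; its version and the arrays normalised together are not given in the sources used here. Control probe sets (124) were dropped and no filter on low values was set. Symbols were read from the platform's annotation, with 10069 probe sets of 1 symbol and 198 of several, which were not used. Gene IDs of 9961 matched a RefSeq gene table of Sscrofa11.1.

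Conjunctiva minus cornea was tested in R 4.3.3 by limma 3.58.1 (two-sided, moderated by eBayes, Benjamini-Hochberg over all tested probe sets, threshold 0.05), and the script was tested on simulated data. Members and gene lists were chosen with earlier results of these data known. Named genes were the members, the measured pathway genes, up to 3 per lipid list by the smallest p, INSIG1, SREBF1 and SREBF2, and the 5 most correlated with each profile (mean at or above the median, SD of at least 0.2). CH25H, also named by that rule, and marker list genes are given by count only. AUP1 was named outside that rule, for its correlation. The co-variation settings and those without both clones numbered 1 were chosen after seeing the data.

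Clones that share a number deviated together from their tissue means, with correlations over all probe sets of 0.354, 0.169 and 0.349 for numbers 1, 2 and 3. The number was therefore also used as a block, although its meaning is not given by the labels. Per the array run files, fluidics station 1 held conjunctiva 2, conjunctiva 3 and cornea 1, and station 2 the others. Precision is limited by the number of arrays. The motif search that had been planned was not run.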

Additional observations from a re-analysis of the deposited data

How the results depend on the processing

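Probe sets past the threshold stayed at 0 in all settings but 2, with 2 under the trend and robust options and 1 with 1 probe set per gene (0 to 0 when 1 clone was left out), and 0 members passed in any. The count at an unadjusted p under 0.05 was 1204 with the replicate block, 1435 within station 1, 259 with the filter on low values, 163 with 1 probe set per gene, 365 without both clones numbered 1, and 538 to 1038 without 1 clone. The filter, the single probe set per gene and the smaller sets of clones tested fewer probe sets or arrays by construction. The block changed no call. Within a station the fits had 1 array of 1 tissue, assumed to vary like the others, and 1 residual degree of freedom.

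HSD17B7 kept its direction and missed the threshold in all 17 settings (0.45 to 0.60). None but array median centring (0.54) could have turned it, because the tissues did not overlap or the estimate was fixed. Within station 1 (cornea 1 against conjunctiva 2 and 3), the median of the other 5 members was -0.59, HSD17B7 minus their mean 1.19 and the median of the pathway list -0.45. Within station 2 (conjunctiva 1 against cornea 2 and 3), they were 0.46, 0.11 and 0.47. When 1 clone was left out they ran from -0.27 to 0.05, 0.42 to 0.78 and -0.22 to 0.08. The median correlation of the 5 genes was -0.0068 without both clones numbered 1, -0.12 with the replicate block, and 0.63 to 0.85 without 1 clone. The replicate block leaves little variation for that correlation to rest on, and leaving out both clones numbered 1 leaves few clones.

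Signs turned within station 2 for MSMO1 (0.20), HMGCS1 (0.46), SQLE (0.16), FDPS (0.60), FDFT1 (0.52), ACAT2 (0.81), SC5D (0.087), INSIG1 (0.55), ERLIN2 (0.18), NUS1 (0.40), SYNCRIP (0.69), NUP50 (0.35), LARP4 (0.43), PSME3 (0.40) and CNN2 (0.49), and within station 1 for NSDHL (-0.35), SREBF1 (0.0065), ICMT (-0.13) and HSD17B1 (0.0085). They also turned for FDPS with array median centring (0.023) and with the station as a block (0.025), for SREBF2 with all probe sets averaged (-0.058), and without both clones numbered 1 for NSDHL (-0.061) and ERLIN2 (0.12). Without 1 clone, the ranges of the genes that turned were -0.35 to 0.059 for MSMO1, -0.44 to 0.0086 for HMGCS1, -0.18 to 0.17 for SQLE, -0.22 to 0.21 for FDPS, -0.40 to 0.041 for FDFT1, -0.47 to 0.26 for ACAT2, -0.16 to 0.25 for NSDHL, -0.34 to 0.19 for INSIG1, -0.013 to 0.17 for SREBF2, -0.64 to 0.14 for ERLIN2, -0.36 to 0.15 for SYNCRIP, -0.38 to 0.043 for PSME3 and -0.29 to 0.10 for CNN2. The cause of these turns was not tested. Dim probe sets, such as the third of MSMO1, give little room to see a difference.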
